A study of Mus musculus with 10 samples.

Results

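Polycomb repressive complex 2 (PRC2) is described here through the RNA of 10 genes: the catalytic subunits Ezh1 and Ezh2, the core subunits Eed and Suz12, the histone-binding subunits Rbbp4 and Rbbp7, and the accessory proteins Jarid2, Aebp2, Mtf2 and Phf19. The genes were chosen by name, with earlier results of these data known, and all 10 have a row among the 25965 features of the deposited table. RNA-seq was performed on 10 libraries of mouse embryonic stem cells (mESCs), labelled as male lines of strain C57/Bl6 and all grown in 2i medium, a defined medium with kinase inhibitors that holds mESCs in the naive state. Per the study's methods, 2 lines were derived in suspension and sampled at passage 0 (p0). Each was then split and kept to passages 10 and 20 (p10 and p20) under Keniry2022, which is suspension culture at high density with daily passaging, or under Mulas2019, which is culture on gelatin with passaging every 2 days. The labels call these methods New or Off and Old or On. Each of the 5 groups held 2 libraries, 1 per line, and p20 under Keniry2022 was matched in days to p10 under Mulas2019.

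PRC2 places methyl groups on lysine 27 of histone H3 (H3K27). EZH2, or EZH1 with lower activity, carries the catalytic domain, SUZ12 is the scaffold, and EED binds the trimethylated mark and stimulates the enzyme. RBBP4 and RBBP7 bind histones and also serve in other chromatin complexes. JARID2 and AEBP2 belong to the form called PRC2.2, and the Polycomb-like proteins MTF2 and PHF19 belong to PRC2.1 and help bring it to CpG islands. In mESCs the complex marks the promoters of developmental genes that are silent in this state.

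The upstream sequences of 3 members are shown because Eed and Rbbp4 had the largest differences between the culture methods and Suz12 had the highest level. They are the bases just before the annotated start, 5′ to 3′ on the gene's strand, from RefSeq with build GRCm38.p6 (mm10). Capitals mark matches, on either strand, to CCAAT (the NFY box) or GGGCGG (the SP/KLF GC box), and no match overlaps another of a different motif.

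Eed, chr7:89980984-89981226, minus strand: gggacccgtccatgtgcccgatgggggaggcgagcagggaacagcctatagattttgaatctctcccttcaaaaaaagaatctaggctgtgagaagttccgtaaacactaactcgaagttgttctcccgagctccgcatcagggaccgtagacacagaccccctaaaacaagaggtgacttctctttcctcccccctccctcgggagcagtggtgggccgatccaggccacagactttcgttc

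Suz12, chr11:79992856-79993105, plus strand: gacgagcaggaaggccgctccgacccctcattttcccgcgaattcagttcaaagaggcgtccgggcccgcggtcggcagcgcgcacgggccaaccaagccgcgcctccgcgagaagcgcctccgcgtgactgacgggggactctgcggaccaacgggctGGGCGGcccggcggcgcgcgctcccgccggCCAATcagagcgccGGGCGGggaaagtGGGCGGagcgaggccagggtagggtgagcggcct

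Rbbp4, chr4:129335371-129335620, minus strand: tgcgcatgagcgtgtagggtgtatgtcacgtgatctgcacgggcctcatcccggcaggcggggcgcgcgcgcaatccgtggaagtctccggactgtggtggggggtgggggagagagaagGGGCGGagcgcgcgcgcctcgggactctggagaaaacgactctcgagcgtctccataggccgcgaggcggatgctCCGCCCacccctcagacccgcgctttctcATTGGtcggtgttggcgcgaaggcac

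Within 250 bases before the RefSeq start, Suz12 had 1 CCAAT and 3 GGGCGG matches and Rbbp4 had 1 and 2, while Eed had none of either. CCAAT was found for 5 of the 10 members against 34.5% of 27025 mouse promoters, and GGGCGG for 6 of 10 against 32.9%. These counts include Ezh2 (3 CCAAT matches) and Jarid2 (1 of each), whose windows lie wholly inside annotated transcripts. The Aebp2 window, without a match, runs past the start of its span in the deposited table. TTTNGCGC (E2F), CCGGAAG (ETS) and the NRF1 palindrome were found for 0 of the 10 members, against 1.15%, 7.05% and 0.781% of all promoters. GC content of these windows ran from 46.4% in Aebp2 to 76.4% in Rbbp7. A match of letters is a description and not evidence of binding.

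All 10 genes are protein-coding, and all but Rbbp7 lie on autosomes. In mm10 the catalytic pair is Ezh1 (ENSMUSG00000006920, chr11:101191115-101226463, minus strand) and Ezh2 (ENSMUSG00000029687, chr6:47530274-47595341, minus). The core pair is Eed (ENSMUSG00000030619, chr7:89954656-89980983, minus) and Suz12 (ENSMUSG00000017548, chr11:79993106-80034123, plus). Rbbp4 (ENSMUSG00000057236) spans chr4:129307100-129335370 on the minus strand, and Rbbp7 (ENSMUSG00000031353) spans chrX:162760402-162779092 on the plus strand. Of the accessory genes, Jarid2 (ENSMUSG00000038518) lies at chr13:44729474-44921643 (plus), Aebp2 (ENSMUSG00000030232) at chr6:140622449-140678472 (plus), Mtf2 (ENSMUSG00000029267) at chr5:108065674-108109004 (plus) and Phf19 (ENSMUSG00000026873) at chr2:34893757-34914026 (minus).

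Values are log2 RPKM (reads per exon length and library size), and levels of different genes are compared only on this scale, per length. Library totals ran from 24053996 to 30236823 reads. Members were covered by at least 4044 reads per library, except Ezh1 (534 to 991) and Phf19 (76 to 153). Some reads of members can be shared with overlapping genes or copies. The share of 75-base transcript windows found in another gene was 15.4% for Rbbp4 (Sync among them), 6.95% for Rbbp7, 4.91% for Mtf2, 4.72% for Eed, where the noncoding RNA E230029C05Rik runs antisense across the first exon, and 2.08% or less for the others. The strand setting of the counting is not given in the sources used here, so sense and antisense reads cannot be told apart at Eed. In addition, the exon length used for Eed was 2218 bases, against 3828 in GENCODE vM21. As a divisor this length bears on its level and cancels in differences between libraries. Whether reads over exon bases outside the shorter length would change those differences was not tested.

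Some libraries stood apart. The 2 p0 libraries differed from each other with an SD over features of 0.611 on the log2 scale, against 0.230 to 0.265 in the other groups. That difference followed exon length, with a median of 0.41 (replicate 1 minus replicate 2) in the 2595 features with the shortest exons and -0.46 in the 2595 with the longest. Summed RPKM of 4 Y-linked genes was 34.2 to 62.8 in the libraries of 1 line and 0.114 to 1.18 in those of the other. Per the study, a line lost its Y chromosome while it was derived, ahead of the culture comparison. At p20 under Keniry2022 the order was reversed (49.6 for the label replicate 1 and 0.361 for the label replicate 2), so these labels may not follow the lines. As for cell identity, 12 of 12 mESC markers were above 1 RPKM in every group, and 0 of 8 primitive endoderm and 0 of 9 fibroblast markers were. Trophoblast markers were above 1 RPKM for 3 of 7, with summed RPKM of 26.4 to 29.7 under Keniry2022 and 30.9 to 38.3 under Mulas2019. Their part in the results was not tested.

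The members covered a wide range of levels. Over the 8 later libraries Suz12 stood highest, followed by Mtf2, Eed, Rbbp4, Rbbp7, Ezh2, Jarid2, Aebp2, Ezh1 and Phf19. Ranges did not overlap between Suz12 and Mtf2, between Rbbp7 and Ezh2, or along the steps from Jarid2 down to Phf19. Mtf2 was above Eed in 4 of 8 libraries, those of Mulas2019, and below it in those of Keniry2022. Eed was above Rbbp4, and Rbbp4 above Rbbp7, in 8 of 8 libraries each, although their ranges over libraries overlapped. The place of Eed rests on the exon length used. With its reads held fixed and the GENCODE length as divisor, its level would be 0.79 lower (log2). It would then be below Mtf2 and Rbbp4 in 8 of 8 libraries, and above Rbbp7 in only 2. Counting over the longer exons could add reads and make this shift smaller, which was not tested.

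**Figure D1:**
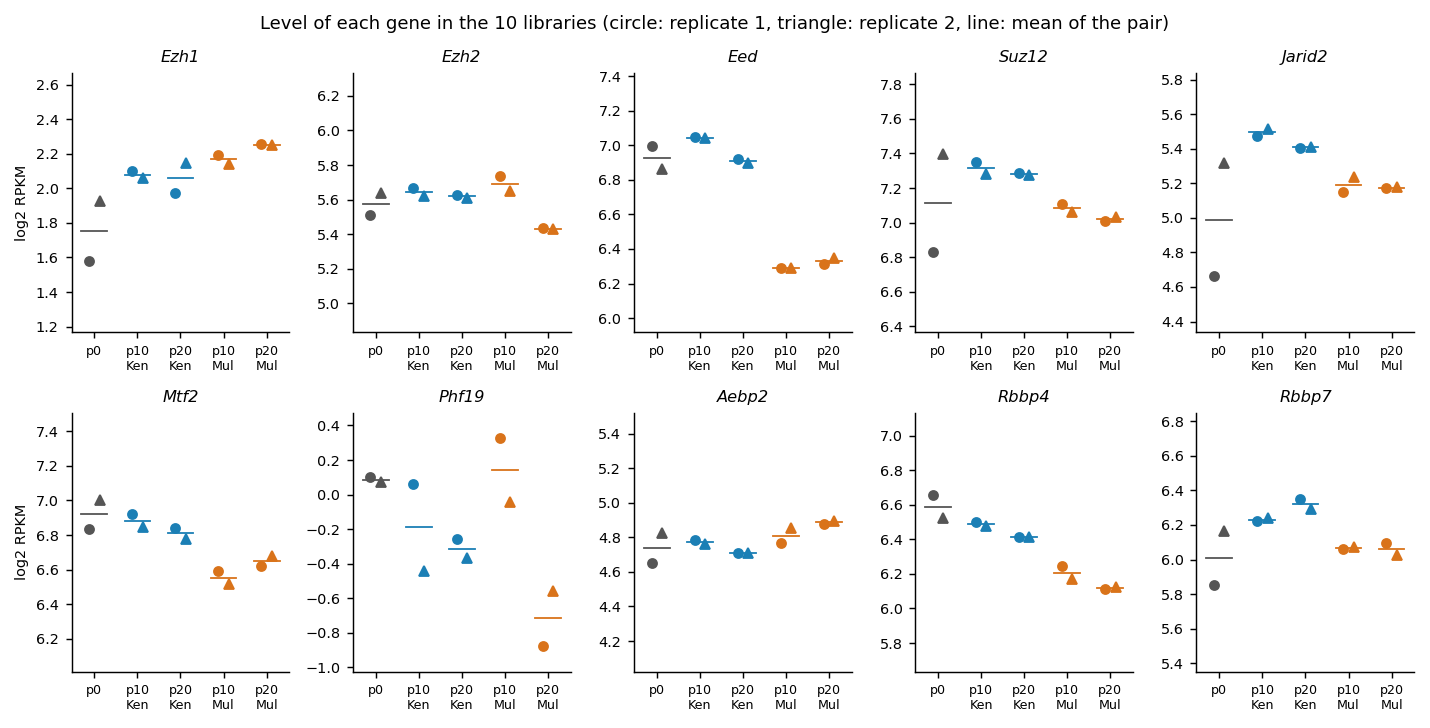
Level of each PRC2 gene (log2 RPKM, vertical axis, the same span of 1.5 in every panel) in the 10 libraries, with circles for replicate 1, triangles for replicate 2 and lines for the mean of each pair; grey is p0, blue Keniry2022 (Ken) and orange Mulas2019 (Mul). Eed shows the widest step between methods, with Keniry2022 at 6.89 to 7.05 and Mulas2019 at 6.29 to 6.35, and the p0 pair is far apart for Suz12 and Jarid2.

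The first question of the design was whether the later passages differed between culture methods, with p10 and p20 pooled as in the study. RNA of 6 members was higher under Keniry2022: Eed (1.59-fold on the linear scale) and, by 1.16-fold to 1.22-fold, Rbbp4, Jarid2, Mtf2, Suz12 and Rbbp7. Aebp2 was lower by a small amount, and neither catalytic subunit passed the test. Thus 7 of the 9 tested members were called by limma at an adjusted p under 0.05, against 51.5% of all 11654 features tested, with 25.9% of features called higher and 25.5% lower. The median difference of the 9 members was 0.24 on the log2 scale, against -0.003 for all features. Under quantile normalisation all 6 higher members had smaller differences: Eed 0.53, Jarid2 0.18, Rbbp4 0.16, Mtf2 0.13, Rbbp7 0.08 and Suz12 0.07. Aebp2 was then at -0.19, Ezh1 at -0.05 and Ezh2 at -0.03, beside a median of 0.004 for all features. Phf19 was not above log2 0 in enough libraries to be tested. In bulk RNA, fewer cells of a type and less RNA per cell cannot be told apart.

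Among the core subunits, Eed was the member with the greatest difference. Eed RNA was 7.05 and 7.04 in p10 Keniry2022, 6.92 and 6.89 in p20 Keniry2022, 6.29 and 6.29 in p10 Mulas2019, and 6.31 and 6.35 in p20 Mulas2019 (log2 RPKM). The lowest Keniry2022 library was 0.55 above the highest Mulas2019 library. Means were 6.98 ± 0.079 and 6.31 ± 0.028 (SD, n = 4 each), a difference of 0.67 (95% interval 0.57 to 0.76, limma adjusted p 2.45e-05) that ranked 597 of 11654 by size. The 5% and 95% points of all features were -0.57 and 0.42, so Eed lay outside that range. It was called under all 20 alternatives, with differences of 0.53 to 0.69.

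Suz12 RNA was 7.35 and 7.28 in p10 Keniry2022, 7.29 and 7.28 in p20 Keniry2022, 7.11 and 7.06 in p10 Mulas2019, and 7.01 and 7.03 in p20 Mulas2019. The scaffold subunit thus showed no overlap between the methods, with a gap of 0.17. Its difference was 0.24 (0.17 to 0.32, adjusted p 0.000328), and it was no longer called after quantile normalisation (0.07, adjusted p 0.0700) or in the model that included the p0 libraries (adjusted p 0.164).

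Ezh2 RNA was 5.66 and 5.62 in p10 Keniry2022, 5.63 and 5.61 in p20 Keniry2022, 5.74 and 5.65 in p10 Mulas2019, and 5.43 and 5.43 in p20 Mulas2019. The Keniry2022 libraries lay above both p20 Mulas2019 libraries and below the higher p10 Mulas2019 library, so the methods overlapped. Means were 5.63 ± 0.024 and 5.56 ± 0.15 (SD, n = 4 each), with a difference of 0.07 (-0.08 to 0.22, adjusted p 0.398) and a direction that turned under quantile normalisation (-0.03).

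Ezh1, the less active paralogue, was at 2.10 and 2.06 in p10 Keniry2022, 1.97 and 2.15 in p20 Keniry2022, 2.20 and 2.14 in p10 Mulas2019, and 2.26 and 2.25 in p20 Mulas2019. It was lower under Keniry2022 in 4 of 4 comparisons of libraries with the same number and passage, yet the ranges of the methods overlapped slightly. The difference of -0.14 (-0.27 to -0.01) did not pass the test (adjusted p 0.0717), except without the intensity trend (adjusted p 0.0460).

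The histone-binding subunits were both higher under Keniry2022. Rbbp4 was 6.5 and 6.48 in p10 Keniry2022, 6.41 and 6.41 in p20 Keniry2022, 6.24 and 6.17 in p10 Mulas2019, and 6.11 and 6.13 in p20 Mulas2019. Its difference was 0.29 (0.20 to 0.37, adjusted p 0.000299), with a gap of 0.17 between the methods and a call under all 20 alternatives (0.16 to 0.37). Rbbp7 was 6.22 and 6.24 in p10 Keniry2022, 6.35 and 6.29 in p20 Keniry2022, 6.06 and 6.07 in p10 Mulas2019, and 6.10 and 6.03 in p20 Mulas2019. The lowest Keniry2022 library of Rbbp7 was 0.12 above the highest Mulas2019 library. Its difference was 0.21 (0.13 to 0.29, adjusted p 0.00110), and it was not called after quantile normalisation (0.08, adjusted p 0.0946) or with p0 in the model (adjusted p 0.0868).

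Of the PRC2.2 proteins, Jarid2 was higher and Aebp2 lower under Keniry2022. Jarid2, which guides the complex to target chromatin, was 5.48 and 5.51 in p10 Keniry2022, 5.40 and 5.41 in p20 Keniry2022, 5.15 and 5.24 in p10 Mulas2019, and 5.17 and 5.18 in p20 Mulas2019. Its difference was 0.27 (0.18 to 0.35, adjusted p 0.000353), with a gap of 0.17, and only the model with p0 ended the call (adjusted p 0.174). Aebp2, a zinc finger cofactor, was 4.79 and 4.76 in p10 Keniry2022, 4.71 and 4.71 in p20 Keniry2022, 4.77 and 4.85 in p10 Mulas2019, and 4.88 and 4.90 in p20 Mulas2019. The methods overlapped for Aebp2, with p10 Mulas2019 replicate 1 inside the Keniry2022 range. Its difference was -0.11 (-0.20 to -0.02, adjusted p 0.0439), and the call was lost under 13 of 20 alternatives. Among these were both fits with the replicate number as a block (adjusted p 0.0599 as labelled and 0.0598 with the p20 Keniry2022 numbers exchanged), the correction for exon length (-0.02, adjusted p 0.796), and leaving out p10 Keniry2022 replicate 2, p10 Mulas2019 replicate 2 or any p20 library (adjusted p 0.0722 to 0.105).

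The Polycomb-like proteins of PRC2.1 stood at opposite ends of the range. Mtf2 was 6.92 and 6.85 in p10 Keniry2022, 6.84 and 6.78 in p20 Keniry2022, 6.59 and 6.51 in p10 Mulas2019, and 6.62 and 6.68 in p20 Mulas2019. Its difference was 0.25 (0.15 to 0.34, adjusted p 0.00123), with a gap of 0.10 between the methods and a call under all 20 alternatives (0.13 to 0.28). Phf19, its paralogue, was 0.06 and -0.44 in p10 Keniry2022, -0.26 and -0.37 in p20 Keniry2022, 0.33 and -0.04 in p10 Mulas2019, and -0.88 and -0.56 in p20 Mulas2019. The Keniry2022 range of Phf19 lay inside the wider Mulas2019 range, and both p20 Mulas2019 libraries were below every Keniry2022 library. Fitted without the filter on low values, its difference was 0.04 (-0.56 to 0.63, adjusted p 0.918), an interval that leaves room for changes larger than those of any other member but Eed.

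No overlap between the 4 Keniry2022 and the 4 Mulas2019 libraries was seen for 6 of the 9 tested members, all with Keniry2022 above, against 46.5% of all features, 23.1% with Keniry2022 above. The same 6 were higher in 4 of 4 differences between libraries of the same number and passage, which ranged from 0.10 (Mtf2) to 0.76 (Eed), or from 0.16 (Mtf2) with the p20 Keniry2022 numbers exchanged. Across all features the difference between the methods also moved with exon length, from a median of 0.10 in the features with the shortest exons to -0.10 in those with the longest. After a correction for exon length, added after seeing the data, Eed stood at 0.65, Rbbp4 at 0.37, Jarid2 at 0.36, Mtf2 at 0.28, Suz12 at 0.27 and Rbbp7 at 0.17, all called. This correction used GENCODE lengths, which for some members differ from the lengths behind the values. These were Eed (3828 against 2218 bases), Aebp2 (9851 against 8111), Ezh2 (6678 against 6197) and Mtf2 (5698 against 5263). The 4 libraries of each method are 2 lines at 2 passages and not independent derivations, so p-values measure the spread between these libraries.

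**Figure D2:**
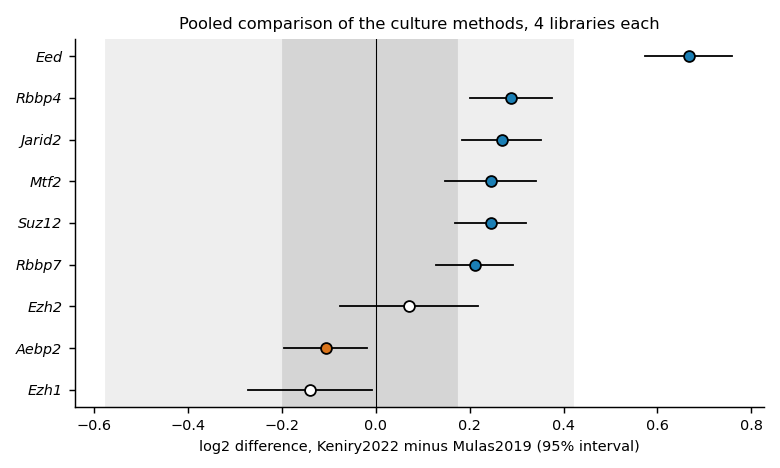
Difference between the methods for each tested PRC2 gene (log2, Keniry2022 minus Mulas2019, 4 libraries each), with points for the limma estimate and lines for its 95% interval; blue is called higher, orange called lower, white not called. Dark and light grey span the middle 50% (-0.20 to 0.17) and 90% (-0.57 to 0.42) of all 11654 features, and only Eed, at 0.67, lies outside the light band.

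As the core subunits act together in 1 complex, the RNA of pairs was also compared inside each library, which removes the scaling between libraries. Eed minus Suz12 was -0.32 ± 0.066 under Keniry2022 and -0.74 ± 0.064 under Mulas2019 (difference of log2 RPKM, SD, n = 4 each). The ranges, -0.38 to -0.24 and -0.82 to -0.68, did not overlap. The p0 libraries differed widely, at 0.17 and -0.54. Ezh2 minus Eed was -1.35 ± 0.066 and -0.75 ± 0.18, and Ezh2 minus Suz12 was -1.67 ± 0.013 and -1.49 ± 0.12, again without overlap. For each of these 3 pairs the two-sided exact permutation test over 70 splits gave p = 0.0286, the smallest it can give (0.0476 after Benjamini-Hochberg adjustment over 5 pairs). RNA of Eed was thus lower relative to both Ezh2 and Suz12 in the Mulas2019 libraries. These 3 pairs are built from 3 genes and are not separate results. How many other gene pairs show no overlap was not determined, and among single features it was 46.5%.

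The paralogue pairs did not pass this test. Ezh2 minus Ezh1 was 3.56 ± 0.080 under Keniry2022 and 3.35 ± 0.20 under Mulas2019 (exact permutation p = 0.143, adjusted 0.179), that is, Ezh2 RNA was 11.8 and 10.2 times that of Ezh1 per length. Rbbp4 minus Rbbp7 was 0.18 ± 0.10 and 0.10 ± 0.069 (exact permutation p = 0.257, adjusted 0.257).

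**Figure D3:**
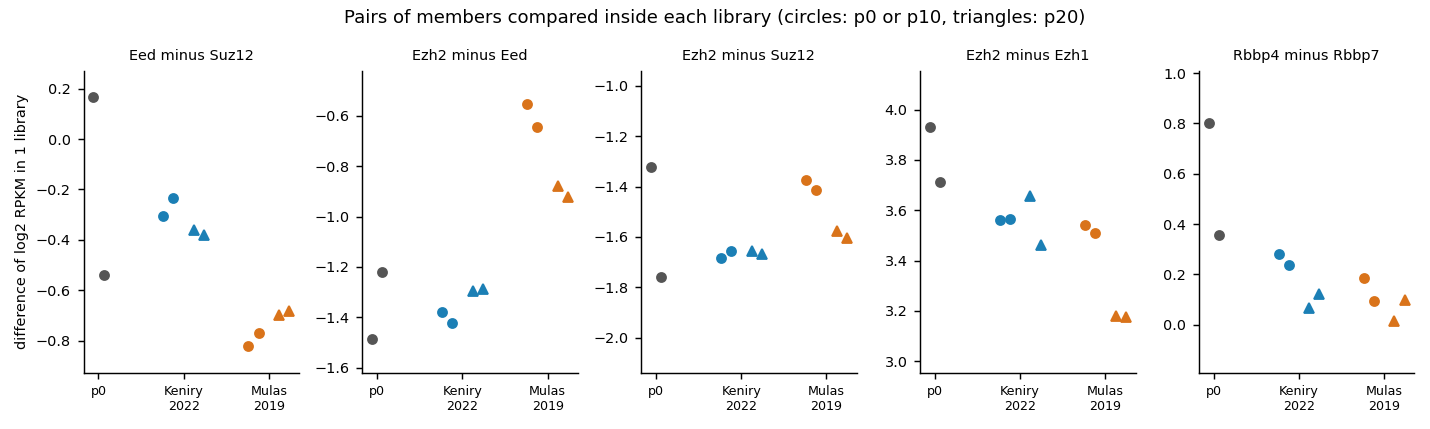
Difference of log2 RPKM between 2 members inside each library, with circles for p0 or p10 and triangles for p20; grey is p0, blue Keniry2022, orange Mulas2019, and every panel spans 1.2 units. The blue and orange points are apart for the 3 pairs of core subunits and overlap for Ezh2 minus Ezh1 and Rbbp4 minus Rbbp7.

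At a single passage the direction of the differences was mostly that of the pooled comparison, but only Eed passed the test in the model of all 10 libraries. At p10 Eed was higher under Keniry2022 by 0.75 (0.58 to 0.93, adjusted p 0.00591), the only one of 9 tested members called, against 8.53% of 11561 features. Mtf2 (0.33, adjusted p 0.0556) and Rbbp4 (0.28, adjusted p 0.0635) missed the threshold. At p20 Eed was higher by 0.58 (0.40 to 0.75, adjusted p 0.0209), again 1 of 9 members, against 2.15% of features. Rbbp4 followed at 0.29 (adjusted p 0.0953). With the methods matched in days, Eed was higher by 0.62 (0.44 to 0.79, adjusted p 0.0132), 1 of 9 members against 6.43% of features.

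These calls for Eed depended on which libraries were in the fit. At p10 the call ended without either p10 Keniry2022 library or without p10 Mulas2019 replicate 1 (adjusted p 0.0511 to 0.0888). At p20 it ended without any 1 of the 8 later libraries (adjusted p 0.0551 to 0.243), and in the day-matched comparison without any 1 of its 4 libraries (adjusted p 0.0701 to 0.141). Its difference stayed between 0.56 and 0.76 in these fits.

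The spread of the p0 pair enters that model, and without p0 the same differences had narrower intervals. In the model of the 8 later libraries, 6 of 9 members were called at p10, all higher (Eed, Mtf2, Jarid2, Rbbp4, Suz12 and Rbbp7), against 48.3% of features (24.8% higher). At p20 it was 8 of 9 against 36.7% (18.6% higher), with 7 members higher, Ezh2 at 0.19 (adjusted p 0.0123) among them, and Aebp2 lower by 0.18 (adjusted p 0.0175). In the day-matched comparison it was 6 of 9, all higher, against 43.4% (22.7% higher). Leaving out either single p0 library gave the same counts.

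**Figure D4:**
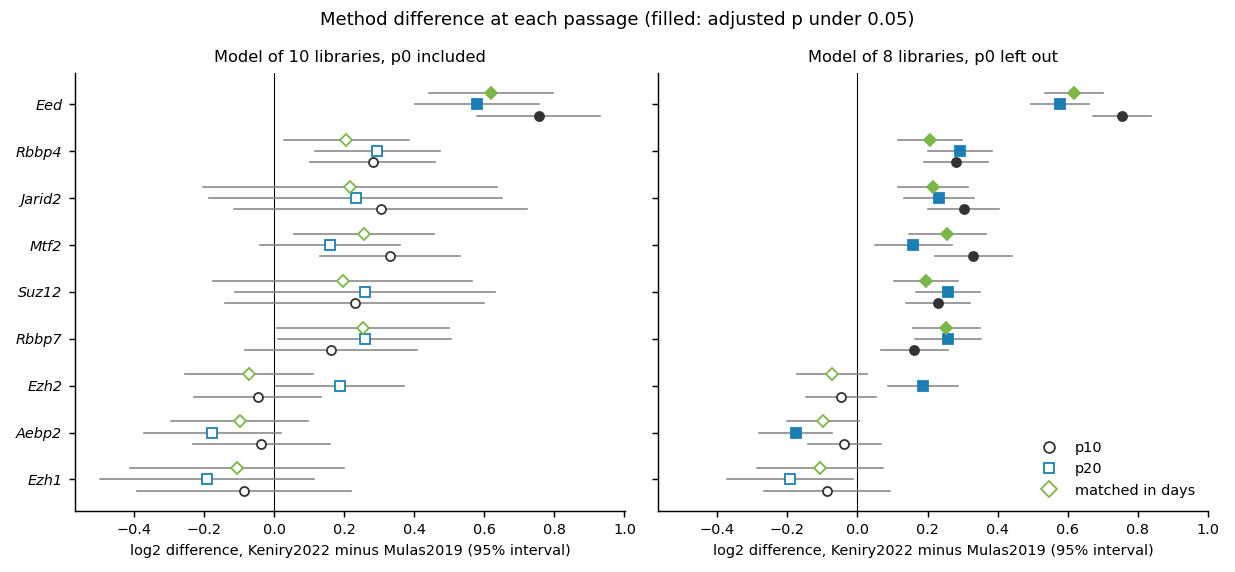
Difference between the methods (log2, Keniry2022 minus Mulas2019) for each tested PRC2 gene at p10 (circles), at p20 (squares) and matched in days (diamonds), with 95% intervals; filled symbols have a limma adjusted p under 0.05. Eed is the only filled gene with p0 in the model (left), and the point estimates are the same without p0 (right), where the intervals narrow and more genes are filled.

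The next question was how far each method had moved from the starting cells. Per the study the lines were derived with its own culture method, so only the Mulas2019 libraries had changed method since p0. These 4 comparisons share the p0 libraries, and the p0 pair was uneven in several members: replicate 1 minus replicate 2 was -0.66 in Jarid2, -0.57 in Suz12, -0.35 in Ezh1, -0.31 in Rbbp7, and between -0.18 and 0.14 in the others. Suz12 was 6.83 and 7.40 at p0, so its p0 libraries lay on either side of all 8 later ones. Jarid2 was 4.66 and 5.32, the first below every later library. Eed was steadier, at 7.0 and 6.86, the first inside the range of the Keniry2022 libraries and the second just below it, and both above all Mulas2019 libraries.

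Under Keniry2022, 0 of 9 members were called against p0 at p10 and 0 at p20 by limma, against 0.199% of features in each. At an unadjusted p under 0.05 there were 2 members at each passage, Ezh1 (0.33) and Jarid2 (0.51) at p10, and Ezh1 (0.31) and Rbbp7 (0.31) at p20. Without p0 replicate 2 the count of members called was 5 at each passage, but so were 64.3% of all features at p10 and 66.5% at p20, and without p0 replicate 1 no member was called.

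Under Mulas2019, 4 of 9 members were called at p10 against 33% of features (15.7% higher and 17.3% lower). Eed fell by 0.64 (adjusted p 0.00677), Rbbp4 by 0.38 (0.0159) and Mtf2 by 0.37 (0.0225), while Ezh1 was higher by 0.41 (0.0459). At p20 it was 3 of 9 against 29.3% of features (14.7% higher and 14.6% lower), with Eed lower by 0.60 (adjusted p 0.00895), Rbbp4 lower by 0.47 (0.0125) and Ezh1 higher by 0.50 (0.0319), while Mtf2 was at -0.27 (0.0504). For Rbbp4 the p0 values were 6.66 and 6.52 and for Mtf2 6.83 and 7.0, all above every Mulas2019 library. The Ezh1 p0 values of 1.58 and 1.93 lay below all 8 later libraries.

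The Eed calls against p0 held under median centring, quantile normalisation and the length correction, with differences of -0.34 at p10 and -0.27 at p20 under quantile normalisation, whereas those of Rbbp4, Mtf2 and Ezh1 ended under quantile normalisation (differences of -0.11, -0.07 and 0.28 at p10). With library quality weights no feature was called against p0. The Ezh1 calls were the least steady, kept in 1 of 10 fits with a library left out at p10 and in 2 of 10 at p20. Without p0 replicate 1 its difference was 0.24 at p10 (adjusted p 0.0788) and 0.33 at p20, and after the correction for exon length it was 0.17 (adjusted p 0.169) and 0.26 (0.0586), neither called. Ezh1 at p10 was also not called with the replicate number as a block (adjusted p 0.0520). The same correction moved Rbbp4 away from 0, to -0.69 at p10 and -0.77 at p20, and Mtf2 to -0.49 at p10, all called. Without p10 Mulas2019 replicate 1 no member was called at p10, and Eed had an adjusted p of 0.0768, and without replicate 2 only Eed was. At p20 no member was called without either p20 Mulas2019 library, with Eed at 0.0854 and 0.0889. Without p0 replicate 2, 9 of 9 members were called at p10 and 8 at p20, beside 71.8% and 71.1% of all features. Without p0 replicate 1 the members called were 4 and 6, beside 40.5% and 37.5%.

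No tested member was called between p10 and p20 in either method when p0 was in the model. Under Keniry2022, 0 of 9 members were called between the passages, against 0% of 11561 features (289 at an unadjusted p under 0.05, none of them members). The largest difference of a tested member was -0.14 in Eed (-0.31 to 0.04). In the model without p0 its interval was -0.22 to -0.05 (unadjusted p 0.00508, adjusted p 0.232, not called). Under Mulas2019, 0 of 9 were called, against 0% of features (772 at an unadjusted p under 0.05, 1 of them a member). That member was Ezh2, whose 2 p20 libraries (5.43 each) lay below all of its other libraries, with a difference of -0.26 (-0.44 to -0.08, p 0.0111, adjusted p 0.549). It was called in the model without p0 (adjusted p 0.0369, against 2.47% of features) and with library quality weights (0.0228). Phf19, fitted without the filter and resting on 76 to 153 reads, had a wider difference under Mulas2019, of -0.86 (-1.37 to -0.35, adjusted p 0.412).

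With p0 in the model, the test of whether the method difference itself changed between passages (the interaction, in limma) called 0 of 9 members. It called 0% of features, with 405 features and no member at an unadjusted p under 0.05. For Ezh2 the estimate was 0.23 (-0.02 to 0.49, unadjusted p 0.0685), and for Eed -0.18 (-0.42 to 0.07). For Phf19 without the filter it was 0.73 (0.02 to 1.45, adjusted p 0.990). The model without p0 also called no member and 0% of features, with narrower intervals. Unadjusted p there was 0.00489 for Ezh2 (0.09 to 0.38), 0.00807 for Eed (-0.29 to -0.06) and 0.0355 for Mtf2 (-0.33 to -0.01). The adjusted p of these members was 0.153, 0.177 and 0.282.

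Across the 10 libraries, the member profiles most alike, by the root mean square (RMS) of the difference between mean-centred log2 values, were Suz12 and Rbbp7 (0.0895), Mtf2 and Rbbp4 (0.0996), and Suz12 and Jarid2 (0.118). Eed and Suz12, partners in the core, were less alike (0.286). Among 6198 features with a mean of at least 3, the profiles nearest to Eed were Fbxo22 (0.0441), Mki67ip (0.0499) and Jup (0.0808). Those nearest to Suz12 were Vps41 (0.0367), Kpna3 (0.0404) and Morc3 (0.0405), and those nearest to Ezh2 were Dbf4 (0.050), Fkbp5 (0.0502) and C80913 (0.0564). All profiles share the same libraries and scaling, and no p-value is given.

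Other genes that act with or against PRC2 moved in both directions in the pooled comparison. Of 8 further partners and regulators, 4 were called higher and 2 lower, 75% against 51.5% of all features. Higher were Dnmt3l (0.75, adjusted p 0.000270), a DNA methyltransferase cofactor without activity of its own, the chromatin remodeller Atrx (0.35, 0.000736), the H3K27me3 reader Cdyl (0.31, 0.00158) and Epop (E130012A19Rik in the table, 0.30, 0.00239), a PRC2.1 subunit named after its value was seen. Lower were Ezhip (AU022751; -0.77, 0.000731), an inhibitor of the enzyme, with means of 1.18 ± 0.24 under Keniry2022 and 1.96 ± 0.17 under Mulas2019 (SD, n = 4 each), and Phf1 (-0.76, 0.00265), the third Polycomb-like gene, at 0.50 ± 0.32 and 1.26 ± 0.17. The median of this list was 0.23.

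For PRC1, which recognises the mark and ubiquitinates histone H2A, 4 of 29 genes were called higher and 11 lower, 51.7% in all against 51.5% of all features, with a median of -0.17. Over all features the calls were 25.9% higher and 25.5% lower. The ubiquitin ligase Rnf2 (0.27, adjusted p 0.000178), L3mbtl2 (0.31, 0.000248) and the CpG island binder Kdm2b (0.50, 0.00101) were higher. The chromodomain genes Cbx7 (-0.33, 0.000141) and Cbx6 (-0.20, 0.00428) and the ring finger gene Pcgf3 (-0.24, 0.00261) were lower. Of 5 enzymes listed as removing the mark or acetylating the same lysine, 2 were called (40%), both lower: the demethylase Kdm6b (-0.58, 0.000930) and the acetyltransferase Ep300 (-0.32, 0.00102). The Y-linked Uty, also among the 5, ran from -7.89 to 2.66 between libraries with low and high Y-linked RNA. With that spread it could hardly be called (0.75, standard error 2.52, adjusted p 0.822).

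Lists of other complexes had called shares of 50% each, close to the 51.5% of all features. Of 16 subunits of the COMPASS and MLL complexes, which methylate lysine 4 of histone H3, 4 were higher, Dpy30 (0.43, adjusted p 4.73e-05), Wdr5 (0.31, 0.000393) and Ash2l (0.14, 0.00528) among them, and 4 were lower, with Kmt2c (Mll3; -0.44, 0.000387), Kmt2a (Mll1; -0.34, 0.000613) and Kmt2b (Wbp7; -0.14, 0.0218) leading. Of 20 tested genes from other complexes that use RBBP4 and RBBP7, 6 were higher, led by Hdac2 (0.42, 4.73e-05), Mta2 (0.27, 0.000577) and Sin3b (0.25, 0.00137), and 4 lower, led by Mta1 (-0.39, 0.00371), Mbd2 (-0.26, 0.00789) and Sap130 (-0.17, 0.0146).

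Developmental genes listed as marked by PRC2 in mESCs were mostly too low to test, and the mark itself was not measured here. Of 39, only 7 were above log2 0 in enough libraries, and these are the ones that were not silent. Tbx3, which was among the 7, also counts among the mESC markers above. Eomes, a T-box factor of early lineages, was at 0.97 ± 0.10 under Keniry2022 and 1.37 ± 0.23 under Mulas2019 (SD, n = 4 each), a difference of -0.40 (adjusted p 0.0162). Cdkn1c, an imprinted cell cycle inhibitor, was called higher under Keniry2022 (0.48, limma adjusted p 0.0472). Its means were 0.90 ± 0.22 and 0.42 ± 0.36, the libraries of the methods overlapped, and its p0 mean was 1.99. The other 5 were not called, so that 28.6% of the 7 were called, against 51.5% of all features. The median of the 7 was 0.05.

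**Figure D5:**
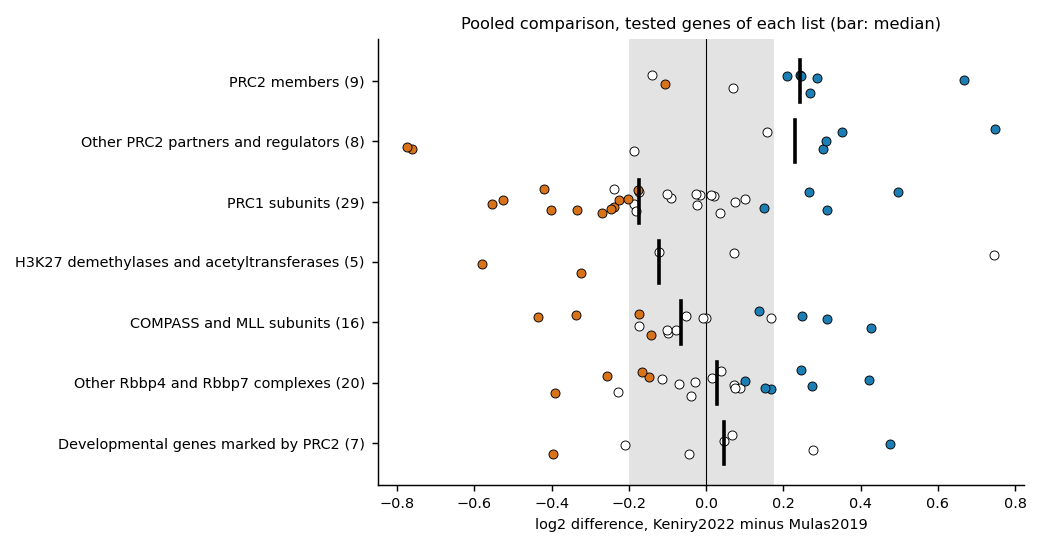
Pooled difference between the methods (log2, Keniry2022 minus Mulas2019) for the tested genes of each list, 1 point per gene spread vertically for clarity; blue is called higher, orange called lower, white not called, the bar is the list's median, and grey spans the middle 50% of all features. PRC2 members centre at 0.24 and PRC1 subunits at -0.17, and the developmental genes run from -0.40 to 0.48.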

How the data were processed

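RNA-seq of 10 mESC libraries was analysed from 1 deposited table. Per the study's methods, single-end reads of 75 bases were trimmed, aligned to mm10 with HISAT2 and quantified in SeqMonk, whereas the submitters' processing notes name TopHat2 2.0.12. The deposited values are log2 RPKM, although named log CPM, and the authors' values hold 0 reads as 0.9 reads. 0 columns of values were left unused. Read numbers of members were worked out from the values, and intervals cover this spread or counting error only.

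Tests were run in R 4.3.3 with limma 3.58.1 (moderated test with intensity trend, two-sided, Benjamini-Hochberg over all features tested, threshold 0.05) for features above log2 0 in at least 50% of the libraries of the fit. The pooled comparison used 8 libraries without a block, and all others 1 model of 10 libraries and 5 groups. The authors' edgeR and voom steps need read counts and were replaced. Pairs inside libraries were tested by exact permutation (scipy 1.17.1). Scripts were tested on simulated data.

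Members and gene lists were chosen with earlier results of these data known, and 1 listed gene is not reported here. Named were all members, up to 3 called genes per list and direction with the smallest p, and the 3 nearest profiles to Ezh2, Eed and Suz12. Epop was named in addition, after its value was seen. Gene coordinates are those of the deposited table (mm10), while gene identifiers and annotated exon lengths follow GENCODE vM21. Alternatives were filters, log2(linear value + 1), median centring, quantile normalisation, no trend, library weights, other sample sets, each library left out, the replicate block, and, added later, a correction for exon length and exchanged p20 Keniry2022 numbers. Same-numbered libraries come from the same line per the study. Their deviations from the group means correlated at 0.17 to 0.63 across features between all groups except p20 Keniry2022, where all correlations were negative (-0.70 to -0.12).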

Additional observations from a re-analysis of the deposited data

Results flagged for a closer look

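In the 4 Keniry2022 libraries, Suz12 was at 7.35 in p10 replicate 1 and between 7.28 and 7.29 in the other 3, so the gap below the highest library made up 0.862 of the whole range. This was the only one of 20 groups of 4 libraries (10 genes under 2 methods) in which 1 library stood this far from the rest, and chance gives about 1 in 20. The distance in level was small (range 7.28 to 7.35), and the pooled Suz12 call did not rest on that library: all fits that left out 1 library kept it.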

How the results depend on the processing

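Under 20 alternatives to the pooled comparison, Eed, Rbbp4 and Mtf2 kept their calls throughout, Jarid2 lost its call under 1, Suz12 and Rbbp7 under 2 each and Aebp2 under 13. The 7 members called became 3 in the model of all 10 libraries, and the 43 genes called over all lists became 16. Without each replicate in turn, members ranged from 6 to 7 and list genes from 38 to 43. At p10 the single call became 2 under median centring, 3 after the correction for exon length, and 6 with library quality weights or without p0. At p20 it became 8 with weights and 8 without p0. Matched in days it became 6, 6 and, after the length correction, 3. Against p0, Mulas2019 calls fell from 4 (p10) and 3 (p20) to 1 and 1 under quantile normalisation and to 0 and 0 with weights, where 0 features were called. Between passages under Mulas2019, 0 became 1 with weights and without p0. Leaving out each replicate gave 0 to 6 members at p10, 0 to 8 at p20, 0 to 6 matched in days, 0 to 5 against p0 under Keniry2022 at either passage, 0 to 9 (p10) and 0 to 8 (p20) against p0 under Mulas2019, and 0 to 1 between passages under Mulas2019. Where a fit leaves 1 library in a group, that library is assumed to vary like the others. Directions turned for Ezh2 in the pooled comparison under quantile normalisation (-0.032), and at p10 for Ezh2 (0.013) and Aebp2 (0.076) after the length correction and for Aebp2 when 1 replicate was left out (-0.081 to 0.0063, the highest without p10 Mulas2019 replicate 2). None of these was called. The replicate block ended the pooled call of Aebp2 (-0.11, adjusted p 0.0599) and the p10 call of Ezh1 against p0 (0.41, adjusted p 0.0520), and changed no other member call, with 6 members called in the pooled comparison. With the p20 Keniry2022 numbers exchanged, the same comparison also had 6. The causes were not tested. The depth of Phf19, 76 to 153 reads, limits any statement on it.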
